A study of Mus musculus with 2 samples.

Results

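The genes described here are the basic helix-loop-helix (bHLH) transcription factors of mouse embryonic stem cells, together with the Id proteins, which share the helix-loop-helix fold. They were chosen by a pattern of gene symbols that covers the Myc, Max and Mlx, Id, E protein, Hes and Hey, Usf and MiT, Bhlhe, proneural, mesodermal, muscle and blood families. The pattern matched 49 of the 15127 protein-coding genes listed in the table of counts. It matched 73 annotated genes, so 24 were not listed. Other bHLH genes, such as the PAS-domain and sterol regulatory families, lie outside the pattern.

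Poly(A) RNA was sequenced from pSM44 cells, a female line from a cross of 129 and castaneus mice. In this line a tetracycline-inducible promoter drives Xist, the RNA that silences an X chromosome, from its own locus on the 129 allele. The labels give 2 libraries of a single group, grown in serum-free 2i/LIF medium and exposed to doxycycline at 2 μg/mL for 24 h. All values came from a single column of counts, whose library or libraries are not named. There was thus a single value per gene, without replicate error. No untreated cells were analysed here, and no effect of doxycycline or Xist was measured. In bulk RNA, fewer expressing cells and less RNA per cell cannot be told apart.

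The column summed to 10017978 counts, and its smallest entry was 1. Levels are given as counts with exact Poisson 95% intervals, as CPM (counts scaled to a column total of 1000000), and, wherever genes are compared, as CPM per kb of annotated exon. These intervals reflect counting alone, and reads that carry no molecular identifiers need not be separate molecules. Detection was set at a CPM of 1, reached with 11 counts. All 10 embryonic stem cell markers were detected, with a summed CPM of 9022. Of 29 markers of fibroblasts, neural cells, mesoderm, muscle, blood and melanocytes, 14 were detected, with summed CPM per list of 1.697 to 78.1. The share detected over all annotated protein-coding genes was 55.1%. The neural marker Nes had 662 counts, and the fibroblast markers Thy1, Col1a2 and Col1a1 had 267, 66 and 58. The fibroblast markers Col3a1, Dcn, Lum and Postn were not listed. The neural markers Sox1 and Tubb3 were not listed either, and each lies wholly inside another gene.

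Proteins with the bHLH fold bind DNA as dimers at short sites called E-boxes. The basic region contacts the DNA and the helix-loop-helix pairs with a partner. E proteins are broadly expressed partners for tissue-specific factors such as those of muscle and nerve. Id proteins lack the basic region and hold E proteins in dimers that cannot bind DNA. Myc proteins bind E-boxes only when paired with Max, and Mxd, Mxi1 and Mnt compete for Max as repressors. In embryonic stem cells, Myc and Id proteins are known for supporting self-renewal downstream of LIF and of BMP signals, and Hes1 for fluctuating between cells.

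The share of bHLH genes detected was close to that of all genes, and their median CPM was lower. Among the 49 listed bHLH genes, 37 were detected, or 75.5% (Clopper-Pearson 95% interval 61.1 to 86.7), against 80.1% of all listed genes. Counted over the 73 annotated genes the share was 50.7% (38.7 to 62.6), and 55.1% over all annotated protein-coding genes. At CPM 10 or more the share was 42.9% (21 genes, interval 28.8 to 57.8), against 58.9% of all listed genes. At CPM 100 or more it was 8.16% (Tcf3, Mycn, Tfe3 and Tcf12, interval 2.27 to 19.6), against 15.5%. The bHLH genes are a fixed list and not a random sample, so these intervals are not a test. The shares are on CPM, without scaling by length. The median CPM was 7.29 for listed bHLH genes and 18.3 for all listed genes, a difference of -1.22 on the log2(CPM + 1) scale. Per kb of exon the same difference was -0.28. Among genes at CPM 1 or more, the medians per kb of exon were 4.31 for bHLH genes and 6.35 for all genes. The 49 genes held 14072 counts, 0.140% of the total, and the 5 with the most counts held 49.7% of these.

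**Figure D1:**
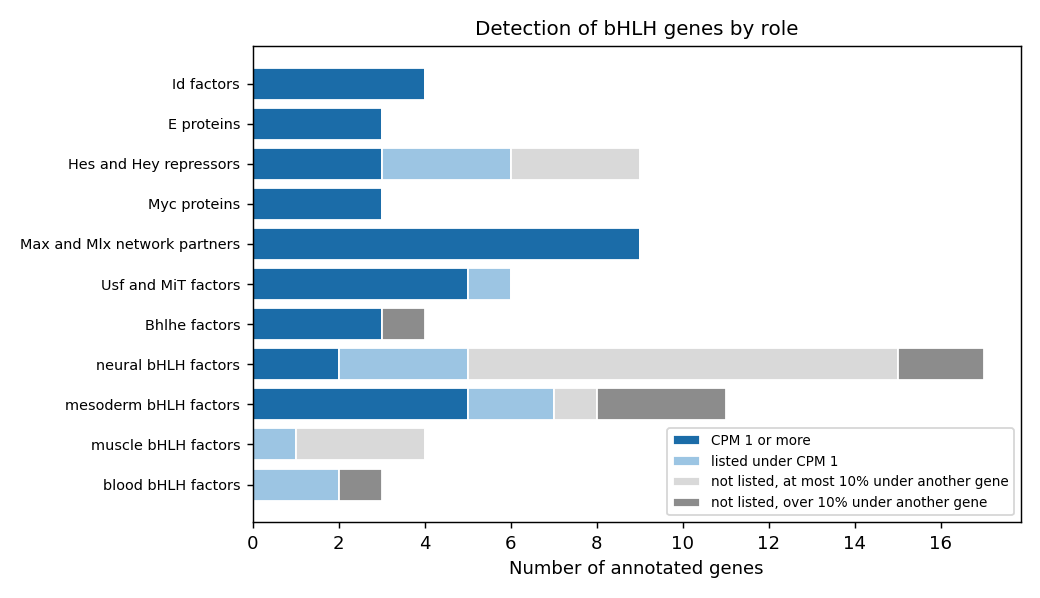
Number of annotated bHLH genes (x axis) in each role (y axis) that were at CPM 1 or more, listed under CPM 1, or not listed, the last divided by whether over 10% of exonic bases lay under another annotated gene. All Id, E protein, Myc, and Max and Mlx network genes were detected, whereas 2 of 17 neural and 0 of 4 muscle factors were. Over all annotated protein-coding genes the share was 55.1%.

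The roles differed in how many of their genes were detected. All 4 Id genes, all 3 E protein genes, all 3 Myc genes and all 9 Max and Mlx network genes were detected. So were 5 of 6 Usf and MiT genes, 3 of 4 Bhlhe genes and 3 of 9 Hes and Hey genes. Among factors that specify lineages, 5 of 11 mesodermal, 2 of 17 neural, 0 of 4 muscle and 0 of 3 blood genes were detected. Over all annotated protein-coding genes the share was 55.1%. The roles are groupings by family and by what the proteins are known to do. Ascl3, Ascl4 and Ascl5 were counted as neural, and the neuronal repressor Bhlhe22 was counted with the Bhlhe genes. The shares by role depend on this grouping, and no test was made between roles. At a CPM minimum of 5, the detected genes were 2 Id, 1 Bhlhe and 0 neural.

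**Figure D2:**
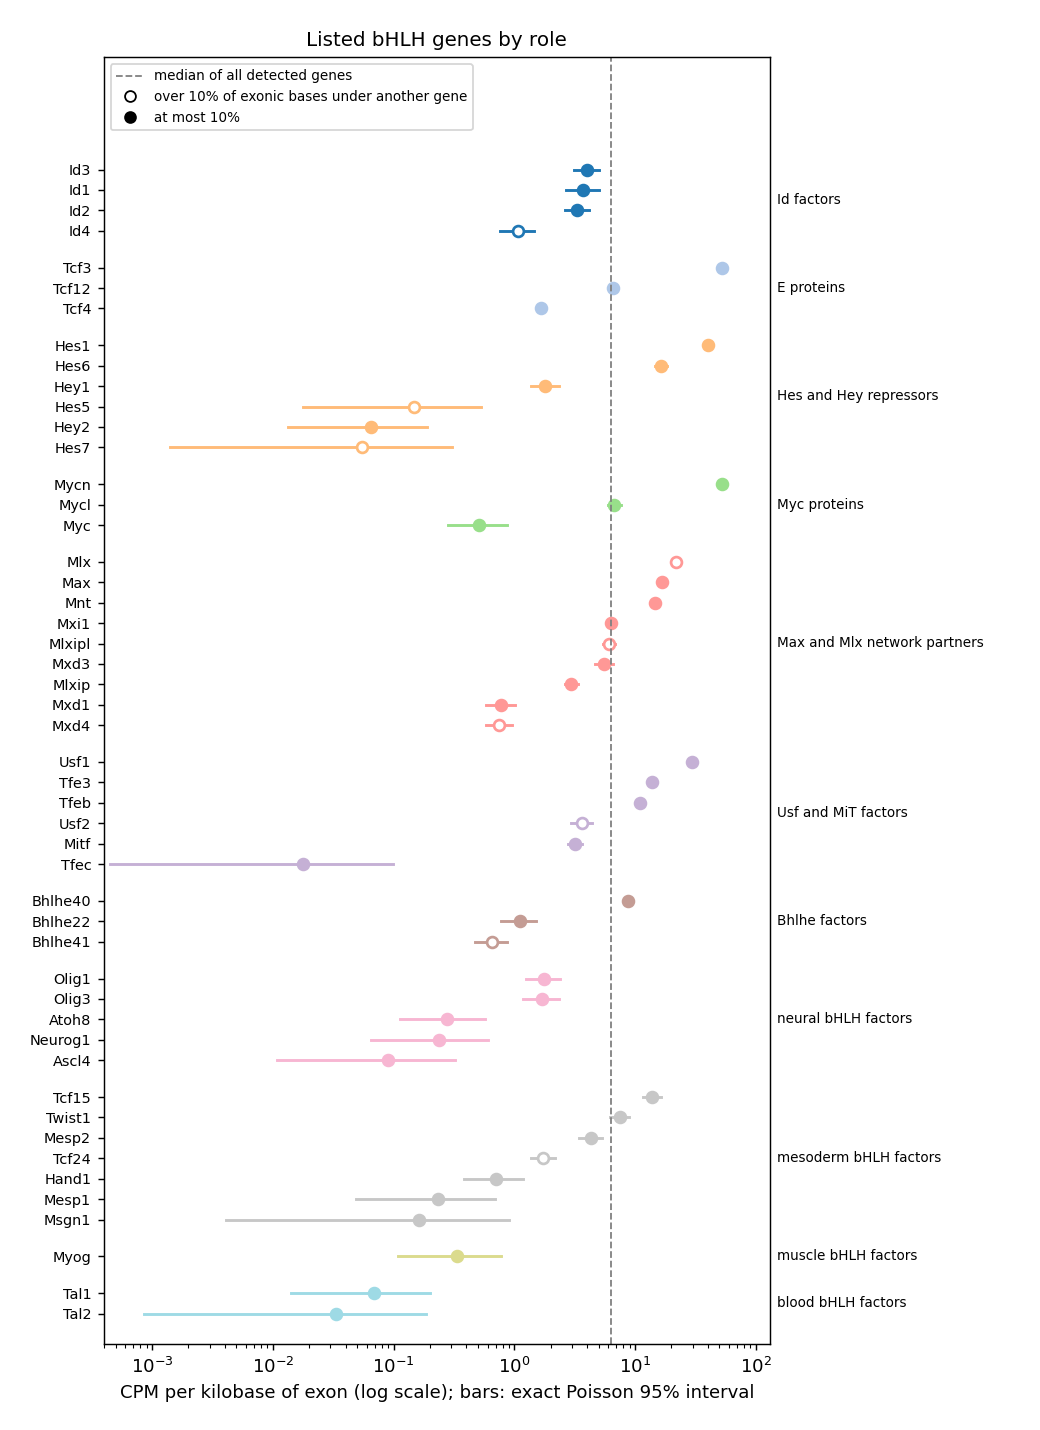
CPM per kb of exon (x axis, log scale) for the 49 listed bHLH genes, grouped by role, with bars for exact Poisson 95% intervals. Open points mark genes with over 10% of exonic bases under another gene, and the dashed line is the median of all detected genes, 6.35 CPM per kb. Mycn and Tcf3 are at the high end, at 52.7 and 52.5, and Myc lies lowest among the detected genes, at 0.514.

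Among the Myc genes, Mycn was abundant and Myc was close to the detection limit. Mycn, the family member prominent in embryonic and neural progenitors, had 1738 counts (interval 1657 to 1822), or 52.7 CPM per kb. It is annotated on chromosome 12 from 12936093 to 12941914, minus strand (GRCm38), with no other gene over its exons. Mycl, the least potent transforming member of the family, had 273 counts and 6.75 CPM per kb. Myc itself, on chromosome 15 from 61985391 to 61990374, plus strand, had 14 counts (interval 7.65 to 23.5) and 0.514 CPM per kb. Its exons also lay under no other gene. Mycn stood first of the 49 bHLH genes per kb of exon, and Myc last among the 37 detected ones, with an interval that overlapped those of Bhlhe41 and Hand1.

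The ratio of Mycn to Myc per kb was 102 (exact 95% interval for counting error 60.8 to 188). Under the other ways of scaling by length, the log2 ratio ran from 6.68 to 6.96. Mycl exceeded Myc 13.1-fold (7.69 to 24.3). Mycn was at percentile 91.4 of all 12090 detected genes with a length, Mycl at 51.4 and Myc at 6.67.

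In a chosen list of 14 classic targets that Myc proteins are known to activate, most genes were above the median of detected genes. Of the 14, 13 were detected, against 55.1% of all annotated protein-coding genes. The median of the 13 was 100.03 CPM per kb, against 6.35 for all detected genes. Npm1, a nucleolar chaperone, had 840 CPM per kb, the mitochondrial chaperone gene Hspd1 308, and the spermidine synthase gene Srm 193. The telomerase gene Tert was the lowest at 4.599, and Nme1, 93.2% of whose exonic bases lie under another gene, was not listed. Cofactors of Myc and enzymes of its turnover gave 14 of 15 detected, beside the same 55.1%, with a median of 25.6 CPM per kb. Wdr5, a chromatin scaffold that binds Myc, had 182 CPM per kb, and the ATPase genes Ruvbl2 and Ruvbl1 had 78.7 and 74.0. The acetyltransferase gene Kat5 was the lowest at 5.77, with 46.9% of its exonic bases under another gene. The ubiquitin ligase gene Fbxw7 was not listed and lies wholly inside another gene. These targets and cofactors also belong to ribosome production and growth in general, and the part of Mycn in their level was not tested.

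All 9 Max and Mlx network genes were detected, and Mlx and Max stood highest among them per kb of exon. Max, the obligate partner of Myc, had 600 counts and 16.6 CPM per kb. Mlx, a Max relative that pairs with the glucose-sensing factors, had 435 counts and 21.7 CPM per kb, with 19.3% of its exonic bases under another gene. Mnt, a broadly expressed repressor that binds Max, had 680 counts and 14.7 CPM per kb. The log2 ratio of Max to Mlx was -0.38 (interval -0.56 to -0.20) per kb of exon. It was 0.46 without length correction, so their order depends on the length used. The same holds for Mnt over Max, at -0.18 per kb of exon (interval -0.34 to -0.02) and 0.93 per kb of gene span. Mxd3 was also above Max per kb of gene span, at 2.81 against 2.40.

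The other repressors of the network were lower per kb of exon. Mxi1 had 431 counts and 6.31 CPM per kb, and Mxd3, known for a peak in S phase, had 131 counts and 5.52. Mxd1 and Mxd4, which rise when cells differentiate and leave the cycle, had 0.776 and 0.753 CPM per kb, from 55 and 64 counts. Mxi1 exceeded Mxd4 8.37-fold (interval 6.43 to 11.1) per kb of exon, whereas per kb of gene span the log2 ratio was 0.51. Summed per kb, the 3 Myc genes came to 59.9, against 28.02 for Mxd1, Mxd3, Mxd4, Mxi1 and Mnt together, or 2.14 times as much. The ratio of these sums was 3.89 per kb of gene span and 1.49 on raw counts. Of the sensors that pair with Mlx, Mlxipl (ChREBP) had 6.07 CPM per kb and Mlxip (MondoA) 2.96. The log2 ratio of Mlxip to Mlxipl was -1.04 (interval -1.28 to -0.80), and 11.4% of the exonic bases of Mlxipl lie under an antisense gene.

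The letters CACGTG, the E-box that Myc, Max, Mlx, Usf and MiT factors are known to bind, occur in some promoters of this network. RefSeq promoter windows (GRCm38.p6, 250 bases before to 50 after a start) were matched for 55 of the 73 bHLH genes. Of the 37 detected bHLH genes 25 had a window, and Myc, Hes1 and Id1 had none. CACGTG, which reads the same on both strands, was present in 8 of these 55 genes (14.5%), against 8.09% of 27025 genes with a window. The 8 were Max, Mlx, Mnt, Mxd4, Mlxipl, Bhlhe41, Atoh8 and Ascl3, and the first 5 of these are partners of the network. Mxd1, Mxd3 and Mxi1, also partners, had windows without CACGTG. This is a description of letters and not of binding. The windows below run from 150 bases before the start to 20 after its first base inclusive, 170 bases in all. They show the 3 network partners highest per kb of exon, with CACGTG in capitals. Mycn, the first of the 49 genes on that scale, is also shown, and its window holds none.
Max (chr12:76962229-76962398, minus strand): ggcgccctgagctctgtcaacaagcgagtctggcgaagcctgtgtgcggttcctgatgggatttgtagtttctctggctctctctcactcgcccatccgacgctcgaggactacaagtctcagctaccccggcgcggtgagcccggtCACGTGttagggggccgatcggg
Mlx (chr11:101087140-101087309, plus strand): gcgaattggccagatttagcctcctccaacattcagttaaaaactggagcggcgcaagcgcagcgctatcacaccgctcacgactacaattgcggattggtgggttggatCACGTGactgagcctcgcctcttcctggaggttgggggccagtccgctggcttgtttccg
Mnt (chr11:74830774-74830943, plus strand): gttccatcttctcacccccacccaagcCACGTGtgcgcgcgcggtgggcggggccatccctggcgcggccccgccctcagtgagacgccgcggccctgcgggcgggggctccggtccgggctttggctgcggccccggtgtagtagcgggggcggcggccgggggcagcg
Mycn (chr12:12941817-12941986, minus strand): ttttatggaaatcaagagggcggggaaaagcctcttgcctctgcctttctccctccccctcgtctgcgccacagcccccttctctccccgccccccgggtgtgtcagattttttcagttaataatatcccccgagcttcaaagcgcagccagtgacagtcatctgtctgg

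Counted from the start, the first base of the site is at -3 in Max, -40 in Mlx and -123 in Mnt. The other letters, searched on both strands, are given as shares of windows, for which CACGTG was at 11.6% of bHLH windows and 7.15% of all windows. The general E-box CANNTG, which includes CACGTG and CACATG, was in 68.1% of 69 bHLH windows and 72.3% of all 32851 windows. CACNAG, the N-box that Hes proteins bind, was in 43.5% and 42.5%, and its form CACGAG in 7.25% and 6.47%. CACATG was in 7.25% and 14.2%, TGGGAA, the core of the site of the Notch effector Rbpj, in 24.6% and 25.6%, and TATAAA in 14.5% and 13.6%. GGCGCC, a Smad-binding GC motif described in Id promoters, was in 18.8% and 11.9%. No letters were tested against chance.

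Id genes were low per kb of exon, and those of their E protein targets ranged widely. Id2, Id3, Id1 and Id4 had 81, 72, 43 and 41 counts. Per kb, Id3 was at 4.01 (interval 3.14 to 5.05), Id1 at 3.70 (2.68 to 4.98) and Id2 at 3.32 (2.63 to 4.12). The intervals of these 3 overlapped. Id1 over Id3 gave a log2 ratio of -0.12 (-0.70 to 0.45), and Id2 over Id3 gave -0.28 (-0.75 to 0.20). Id4, known chiefly from the nervous system, was at 1.06 CPM per kb, with a log2 ratio to Id2 of -1.64 (-2.22 to -1.08). Its exons lie to 20.1% under non-coding genes. All 4 lay under the median of detected genes per kb of exon, the highest at percentile 39.1. Per kb of gene span Id1, Id3, Id2 and Id4 ranked 12, 13, 17 and 25 among the 49 listed genes. Their ranks per kb of exon were 21, 20, 23 and 32.

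Tcf3, which encodes the E proteins E12 and E47 and is a different gene from the Wnt effector Tcf7l1, had the most counts of all 49. It had 2126 counts (interval 2037 to 2218) and 52.5 CPM per kb, and is annotated on chromosome 10 from 80409514 to 80433647, minus strand. Its interval overlapped that of Mycn. Tcf12, which encodes the E protein HEB, had 1017 counts and 6.54 CPM per kb. Tcf4, which encodes E2-2, had 454 counts and 1.66 CPM per kb. The folds of Tcf3 were 8.04 over Tcf12 (7.46 to 8.67) and 31.7 over Tcf4 (28.7 to 35.2). These sizes depend on length, since the annotated exons of Tcf12 and Tcf4 total 15529 and 27382 bases, against 4039 for Tcf3. Without length correction the log2 ratios were 1.06 and 2.23, in the same direction.

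Set together, the E proteins exceeded the Id genes on exon length but not on gene span. The Id genes summed to 12.1 CPM per kb of exon, against 60.7 for the E proteins, a ratio of 0.199. Per kb of gene span the sums were 10.2 for Id genes and 9.30 for E proteins, a ratio of 1.09. The order of the sums therefore depends on whether counts came from exons or from whole genes, which the sources used here do not give. Across genes, row position tracked counts per gene span (Spearman's rho 0.9999) more closely than counts per exon length (0.921). Which feature was counted was not tested. Id1 over Tcf3 alone kept its sign, with a log2 ratio of -3.83 (-4.30 to -3.39) per kb of exon and -1.25 per kb of gene span.

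Genes of the BMP pathway, which activates Id transcription, numbered 15 in the list used here. Of these, 14 were listed and 13 detected, against 80.1% of all listed genes, with a median of 5.98 CPM per kb, and 5 of the 13 lay above the median of all detected genes. Smad4, the common Smad, had 21.8 CPM per kb, the ligand gene Bmp7 14.7 and the inhibitory Smad7 12.5. The lowest detected gene was Smad9, a receptor-activated Smad, at 0.781. The ligand gene Bmp2 had 10 counts, under CPM 1, and the receptor gene Bmpr1b was not listed.

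**Figure D3:**
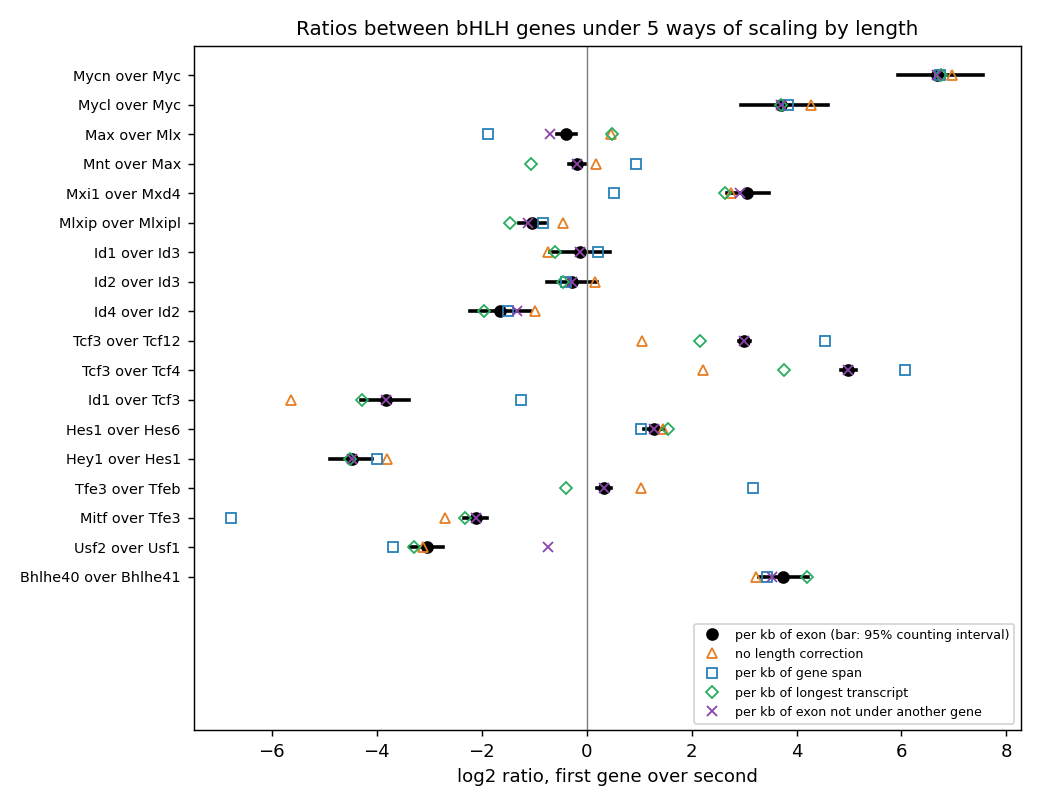
Log2 ratio of the first gene over the second (x axis) for the 18 pairs with both genes listed, per kb of exon (black, with the 95% interval for counting error) and under 4 other ways of scaling. Mycn over Myc stays between 6.68 and 6.96, whereas Max over Mlx, Mnt over Max, Id1 over Id3, Id2 over Id3 and Tfe3 over Tfeb fall on both sides of 0.

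Of the Hes and Hey repressors, Hes1 dominated. Hes1, a Notch effector that also represses its own gene, had 818 counts (interval 763 to 876) and 40.1 CPM per kb. It lies on chromosome 16 from 30064384 to 30067796, plus strand. Hes6, which is known to counteract Hes1, had 298 counts and 16.5 CPM per kb. Hes1 exceeded Hes6 2.44-fold (2.13 to 2.79), and they ranked 3 and 7 among the 49 genes per kb of exon, and 2 and 3 per kb of gene span. Hey1, a Notch target of the vasculature and heart, had 59 counts and 1.80 CPM per kb, and its log2 ratio to Hes1 was -4.47 (-4.88 to -4.09). The next genes were at the limit of the data. Hey2 had 3 counts, Hes5 2 and Hes7 1, and Hes2, Hes3 and Heyl were not listed. Hes5, a Notch target in neural progenitors, has 49.2% of its exonic bases under another gene, and Hes7, the oscillator of somite formation, 19.0%. Hes2, Hes3 and Heyl lie under no other gene.

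Upstream of the Hes factors, of 13 annotated Notch pathway genes, all listed, 10 were detected, against 80.1% of all listed genes, and their median was 3.99 CPM per kb. The effector Rbpj had 8.78, the receptor genes Notch1 and Notch3 8.16 and 5.75, and the coactivator gene Maml1 was the lowest at 0.253. Other genes cover 89.4% of the exonic bases of Maml1 and 44.8% of those of Notch3. Dll4, Maml2 and Maml3 were under CPM 1. The Groucho family includes corepressors that Hes factors recruit. Of its 6 annotated genes in the list, 5 were detected, against 55.1% of all annotated protein-coding genes. All 5 lay above the median of detected genes. Tle5, a short form that lacks the repeat domain, had 65.3 CPM per kb, Tle3 14.6 and Tle4 11.4. Tle1 was lowest of the detected ones at 7.16, and Tle2 had 8 counts.

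**Figure D4:**
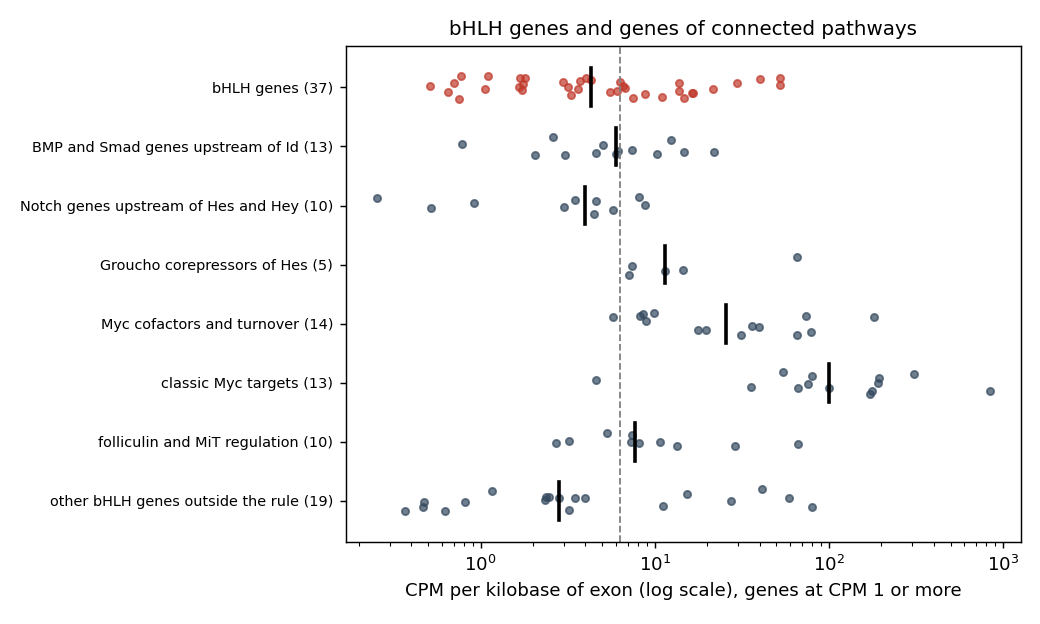
CPM per kb of exon (x axis, log scale) of each detected gene (points) in the bHLH set and in 7 lists of connected genes, with the number of genes in brackets, black bars for list medians and the dashed line for the median of all detected genes. The 37 bHLH genes have a median of 4.31, and the classic Myc targets one of 100.03.

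Among the Usf and MiT factors, which bind the CACGTG E-box without Max, Usf1, Tfe3 and Tfeb were the highest per kb of exon. Usf1, a widely expressed upstream stimulatory factor, had 835 counts and 29.7 CPM per kb. Its partner Usf2 had 96 counts and 3.61 CPM per kb, a log2 ratio to Usf1 of -3.04 (-3.36 to -2.73). Non-coding genes on the opposite strand cover 81.8% of the exonic bases of Usf2. Over the exonic bases not under another gene the log2 ratio was -0.73, so a low level of Usf2 and an effect of the overlap cannot be told apart.

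The MiT factors drive lysosomal genes, and Tfe3 is known to restrain the exit of embryonic stem cells from the naive state. Tfe3, the X-linked member of the 49 genes, had 1278 counts (interval 1209 to 1350) and 13.8 CPM per kb. It lies on chromosome X from 7762560 to 7775202, plus strand. Both alleles are pooled, so the value does not separate the chromosome that carries inducible Xist. Tfeb had 622 counts and 10.95 CPM per kb. Tfe3 over Tfeb gave a log2 ratio of 0.33 (0.19 to 0.47) per kb of exon, 3.17 per kb of gene span and -0.40 per kb of the longest transcript. Mitf, the melanocyte regulator, had 198 counts and 3.19 CPM per kb, with a log2 ratio to Tfe3 of -2.11 (-2.33 to -1.89). Tfec, known from macrophages, had 1 count. The melanocyte marker Tyr was not listed and Dct had 1 count, while Pmel and Mlana had 100 and 66.

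The folliculin complex and the Rag and Tsc proteins, which hold MiT factors in the cytoplasm or act on mTORC1, were encoded by genes that were all detected (10 of 10). The share over all annotated protein-coding genes was 55.1%. The median of the 10 was 7.74 CPM per kb. The Rag GTPase gene Rraga had 66.4, the Ragulator gene Lamtor1 29.03 and Rragc 13.4, and the folliculin partner gene Fnip2 was the lowest at 2.72, with 46.4% of its exonic bases under another gene. For Lamtor1 this share was 35.9%.

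The Bhlhe genes were led by Bhlhe40, a repressor tied to hypoxia and the circadian clock, with 413 counts and 8.76 CPM per kb. Its relative Bhlhe41 had 44 counts and 0.654 CPM per kb, with 19.0% of its exonic bases under another gene, and a fold of 13.4 for Bhlhe40 over Bhlhe41 (9.81 to 18.7). Bhlhe22, a neuronal repressor, had 37 counts and 1.10 CPM per kb. Bhlhe23 was not listed, and 40.6% of its exonic bases lie under another gene.

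The factors grouped as neural were nearly all below the detection limit. Olig1 and Olig3, which specify oligodendrocytes and dorsal neurons, had 38 and 35 counts, or 1.75 and 1.69 CPM per kb, with overlapping intervals. Atoh8 had 7 counts, the neurogenin gene Neurog1 4 and Ascl4 2. Among those not listed were the proneural genes Atoh1 and Neurog2 and the neuronal genes Neurod2, Neurod4 and Neurod6. Atoh7, Ascl3, Ascl5 and Olig2 were likewise not listed. No other gene covers the exons of these. Neurod1 and Neurog3, also not listed, lie wholly inside Cerkl and Fam241b, and so their absence from the table does not show that they were silent.

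Mesodermal factors ranged from 1 count to 136 counts. Tcf15, a factor of paraxial mesoderm that is also described in embryonic stem cells, had 136 counts and 13.9 CPM per kb. Twist1, a regulator of mesenchyme, had 122 counts and 7.48 CPM per kb. Mesp2, which sets somite boundaries, had 84 counts and 4.31 CPM per kb, and Tcf24 had 73 counts and 1.74, with 14.8% of its exonic bases under another gene. Hand1, of heart and trophoblast, had 14 counts and 0.6998 CPM per kb. The early mesoderm genes Mesp1 and Msgn1 had 3 counts and 1 count. Hand2, Tcf21, Tcf23 and Twist2 were not listed. Tcf21 lies wholly inside another gene, and Hand2 and Twist2 have 83.0% and 46.5% of their exonic bases under one. The mesoderm markers Gsc, T and Eomes had 146, 121 and 52 counts, and Mixl1 and Tbx6 had 7 and 6. Their part in the mesodermal bHLH counts was not tested.

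Muscle and blood factors were absent or at single counts. Myog, which drives the terminal step of muscle differentiation, had 5 counts (interval 1.62 to 11.7), and Myod1, Myf5 and Myf6 were not listed, although no other gene covers them. Tal1, the regulator of blood stem cells, had 3 counts and Tal2 had 1. Lyl1 was not listed and lies wholly inside Nfix. Of the 4 muscle markers, Des had 148 counts, Myh3 50 and Ckm 1, and Actc1, which lies wholly inside another gene, was not listed. Of the 4 blood markers, Cd34 had 13 counts and Gata1 4, and Ptprc and Hbb-bt were not listed. Their part in the muscle and blood bHLH counts was not tested.

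**Figure D5:**
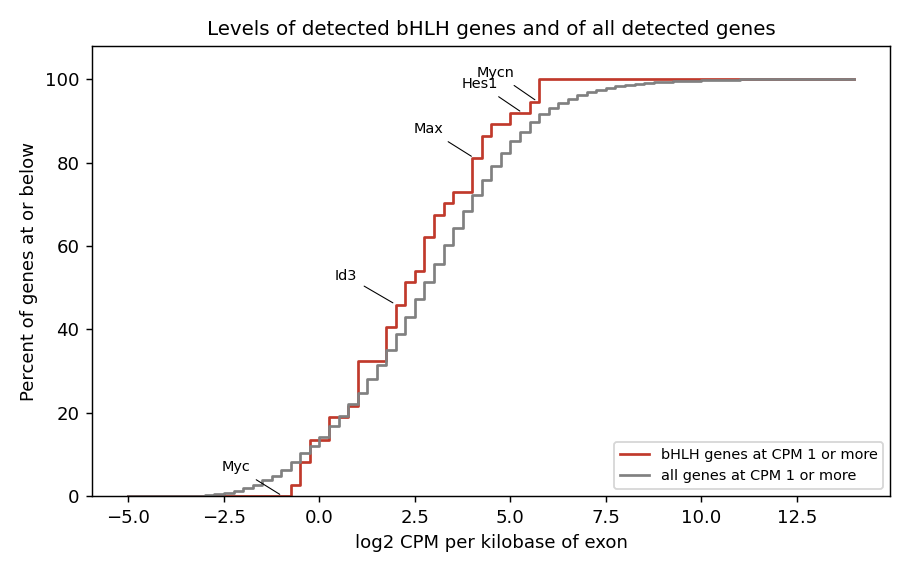
Percent of genes at or below each level (y axis) against log2 CPM per kb of exon (x axis) for the 37 detected bHLH genes (red) and all 12090 detected genes with a length (grey). The bHLH curve ends at Mycn, at 52.7 CPM per kb and percentile 91.4 of all detected genes.

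Per kb of exon, 15 of the 37 detected bHLH genes lay above the median of all detected genes and 22 below it. The medians were 4.31 CPM per kb for detected bHLH genes and 6.35 for all detected genes. The 5 at or above percentile 75 were Mycn, Tcf3, Hes1, Usf1 and Mlx, and the first 2 of them were above percentile 90. In the order of the 37 levels, 29 of 36 neighbouring pairs had overlapping counting intervals. The 7 steps that exceeded them lay between Tcf3 and Hes1, Hes1 and Usf1, Usf1 and Mlx, Mlx and Max, Tfe3 and Tfeb, Tfeb and Bhlhe40, and Mlxip and Hey1.

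Overlap with other genes limited what a missing or low value shows. Of the 24 bHLH genes not listed, 4 lay wholly inside another gene, 3 had over 10% of their exonic bases under one, and 17 had at most 10%. Over the genome 5.59% of 1271 annotated protein-coding genes wholly inside another gene were listed, against 68.7% of all annotated protein-coding genes. Among the 57 bHLH genes with at most 10% overlap, 30, or 52.6%, were detected, against 57.9% of all such genes. The table is sorted: across genes, row position tracked counts divided by gene span (Spearman's rho 0.9999) more closely than counts divided by exon length (0.921). The synaptic gene Dlg2 had 1 count over a span of 1973 kb.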

How the data were processed

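The deposited table held whole-number counts for protein-coding genes, named by symbol, in 1 column. Per the submitters' processing notes, the tools were Trimmomatic 0.38, featureCounts (Subread 1.6.4), SAMtools and HISAT2, and the build was GRCm38.p6. The annotation, strand setting, feature counted and any pooling of libraries were not given in the sources used here. Unstranded counting would leave a gene and its antisense partner indistinguishable, and pooling would hide the spread between libraries.

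CPM was the count over the column total, with a pseudocount of 1 on the log2 scale. Exon lengths and overlaps came from GENCODE M21 (GRCm38), which matched 15053 of the 15127 symbols, 157 of them through RefSeq synonyms, and the 74 others held 0.110% of counts. Overlap is the share of exonic bases under the span of any other annotated gene on either strand. Ratios of counts had exact conditional binomial 95% intervals. No test was made, as there was 1 group with 1 value per gene, and p-values are not given. The functions were tested on simulated counts. The genes, lists, pairs and role groups were chosen with earlier results of these data known, and the 8 motifs after the values were seen. Every detected bHLH gene is named, with the 3 highest and the lowest detected gene of each connected list; a few further genes were named after their values were seen. Some results are not reported here. Calculations ran in pandas 2.3.3, scipy 1.17.1 and numpy 2.4.6 under Python 3.11.15, and plots in matplotlib 3.10.9.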

Additional observations from a re-analysis of the deposited data

How the results depend on the processing

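The number of detected bHLH genes, of roles with most members detected and of detected genes in the connected lists stayed within 1.5 times under a CPM minimum of 0.5 or 5 and a minimum of 10 counts. By role, a CPM minimum of 5 left 2 of 4 Id, 1 of 3 Bhlhe and 0 of 2 neural genes that were detected at CPM 1. The difference of medians between listed bHLH genes and all listed genes moved to -0.28 per kb of exon, from -1.22 on CPM; the alternative itself divides by length. Of 72 ratios recomputed under other lengths for 18 pairs, 37 stayed within the counting interval, 28 moved outside it in the same direction and 7 changed sign. The 37 include pairs without overlapped bases, such as Mycn over Myc. For these, the scale of exonic bases not under another gene could not differ. Without length correction Max over Mlx was 0.46, Mnt over Max 0.18 and Id2 over Id3 0.17. Per kb of the longest transcript Max over Mlx was 0.48 and Tfe3 over Tfeb -0.40. Per kb of gene span Mnt over Max was 0.93 and Id1 over Id3 0.22. No paired analysis was possible because the counts had 1 column for 1 group, and for the same reason no library could be left out. Tal1 over Lyl1 and Twist1 over Twist2 had no ratio, since the second gene was not listed. Under 11 counts a gene was not called detected, and the interval at 14 counts ran from 7.65 to 23.5.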

Other observations

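Of 35 bHLH genes outside the symbol pattern 19 were detected, near the 55.1% of all annotated protein-coding genes, with a median of 2.84 CPM per kb of exon. Srebf2 and Srebf1, the regulators of cholesterol and fatty acid synthesis, had 79.8 and 41.1 CPM per kb, and Srebf2 stood above all 49 genes of the pattern on this scale. Sohlh2, a germline factor, had 59.4 CPM per kb from 1407 counts, while its partner gene Sohlh1 had 1 count. The lowest detected was the clock gene Arntl2 at 0.368. The hypoxia factor Hif1a was not listed and lies wholly inside another annotated gene.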
